A study of Mus musculus with 16 samples.

Results

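Pleiotrophin and midkine, encoded by Ptn and Mdk, and 3 genes for their receptors (Ptprz1, Alk and Sdc3) were followed in mesenchymal stromal cells of mouse marrow. The 5 genes were picked by symbol from a table of 52459 genes, with the difference of Ptn between the SS and SA genotypes already known. Their levels and their differences between genotypes are therefore given as a description, with no test of their own. Of the 5 genes, 4 passed the filter on low counts and Alk did not.

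Pleiotrophin and midkine form a family of small secreted growth factors that bind heparin. At the cell surface they hold to the sugar chains of proteoglycans and act through several receptors, among them the receptor tyrosine phosphatase PTPRZ1, which loses activity when ligand clusters it, the receptor tyrosine kinase ALK and the heparan sulfate proteoglycan syndecan-3. In bone marrow, pleiotrophin made by stromal and endothelial cells is known as a factor that supports blood stem cells, and both ligands have been studied in cartilage and bone.

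The cells came from Townes sickle mice of 2 genotypes and were sorted for CD51 and CD140a, which mark stromal cells (CD51+, CD140a+), and against blood and vessel markers (CD45-, Ter119-, CD31-). Both are homozygous for the human α-globin allele Hbatm1(HBA)Tow (hα/hα). SS mice are homozygous for the sickle beta globin allele, which comes with a human Aγ-globin gene in place of the mouse major and minor beta globin genes (hα/hα::βS/βS), and SA mice, the controls, carry 1 sickle and 1 normal human beta globin allele (hα/hα::βA/βS). The labels state no age, sex or treatment. Each genotype has 4 libraries, numbered by replicate, and each library was sequenced on 2 lanes. The labels do not state further that each library is a separate animal, so p-values may measure only the spread between libraries. 1 lane of SS replicate 4 is titled SS but has SA as its source, and it was kept in SS by its title. Date-like numbers in the titles fall into 3 sets, 1 with all SA libraries, 1 with SS replicate 2 alone and 1 with the other SS libraries, so that what they stand for cannot be told apart from genotype.

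Total counts per library ran from 24797857 to 31117007. All 8 markers of reticular stromal cells, among them Pdgfra for CD140a, passed the filter, and their summed level was 13973 to 31506 CPM in SA and 22100 to 30452 CPM in SS. Levels in CPM are counts scaled to the library total, here adjusted by TMM factors. All 15 markers of leukocytes, which the CD45 gate should remove, passed as well, with a summed level of 851 to 5169 CPM in SA and 368 to 3104 CPM in SS. SA replicates 1 and 2 and SS replicate 1 had the highest leukocyte sums and are called leukocyte-rich below. In SS replicate 2 alone Xist was high (57347 counts, against 420 or fewer) and the Y-linked gene Ddx3y low (12 counts), the pattern of a female animal.

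The bases before the transcription start of Ptn, Ptprz1 and Sdc3 are shown because these genes differed in how widely they varied between the SS libraries, Ptn the most. Whether the sequences bear on that spread was not tested. Each window runs from 250 to 42 bases before the RefSeq start on GRCm38.p6, read on the strand of the gene with CG dinucleotides in capitals.
Ptn, chr6:36810221-36810429, minus strand: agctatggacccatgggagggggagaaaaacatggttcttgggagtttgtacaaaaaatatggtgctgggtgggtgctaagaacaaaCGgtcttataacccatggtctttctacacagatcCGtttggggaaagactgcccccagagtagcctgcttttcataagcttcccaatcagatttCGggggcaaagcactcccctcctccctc
Ptprz1, chr6:22875252-22875460, plus strand: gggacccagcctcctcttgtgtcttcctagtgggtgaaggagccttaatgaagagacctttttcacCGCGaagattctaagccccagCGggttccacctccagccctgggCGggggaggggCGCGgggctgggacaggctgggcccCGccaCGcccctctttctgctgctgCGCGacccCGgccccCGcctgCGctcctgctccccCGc
Sdc3, chr4:130792287-130792495, plus strand: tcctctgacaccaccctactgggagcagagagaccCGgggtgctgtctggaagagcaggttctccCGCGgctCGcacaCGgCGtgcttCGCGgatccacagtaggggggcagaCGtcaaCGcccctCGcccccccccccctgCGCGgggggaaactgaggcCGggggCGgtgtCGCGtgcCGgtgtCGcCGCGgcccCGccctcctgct
The Ptn window holds 3 CG dinucleotides and is 49.8% G and C, near the median of 4 and 51.7% over the 32851 promoters in the table. The Ptprz1 window holds 14 and the Sdc3 window 22, as many as or more than in 80.4% and 92.5% of promoters. GGGCGG, searched on both strands, is in the Ptprz1 and Sdc3 windows and in 26.5% of all windows, and it is not among the letters of the Ptn window. TATAAA, found in 9.5% of all windows, is in none of the 3. Of the 5 genes 4 matched the RefSeq promoter table, and Mdk did not.

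Ptn encodes pleiotrophin. On GRCm38 it is a protein-coding gene on chromosome 6, from 36714929 to 36810220 on the minus strand (ENSMUSG00000029838.11). In SA replicates 1 to 4 it had 109, 147, 42 and 99 counts, or 4.10, 5.11, 1.41 and 3.64 CPM. In SS replicates 1 to 4 it had 41, 2959, 421 and 798 counts, or 1.44, 107, 14.9 and 25.7 CPM. SS replicates 2, 3 and 4 were above every SA library, while SS replicate 1 was below 3 of the 4 SA libraries, so that the genotypes overlapped. It averaged 3.56 ± 1.56 CPM in SA against 37.3 ± 47.6 in SS (SD, n = 4 per genotype), with a log2 fold change of SS over SA of 3.39 (SE 1.002). Without SS replicate 2 the log2 fold change was 1.98 (SE 0.86).

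Within SS the highest Ptn level was 74.2 times the lowest, against 3.63 times within SA. On the log2 scale these ranges were 6.15 and 1.81, where the median range over all genes tested was 1.49 in SS and 1.67 in SA. The widest spread of the family thus lay among the SS libraries and in this gene. Of the 8 chondrocyte markers, 6 were highest in the library with the most Ptn. The markers named here were chosen after their values were seen, and the first 3 did not pass the filter. Hapln1, the link protein of cartilage proteoglycan, reached 1626 counts in that library (SS replicate 2), against 6 or fewer in the 7 others. Acan, which encodes aggrecan, had 880 counts there and at most 127 elsewhere, and Col9a1, a cartilage collagen, 367 and at most 27. Sox9, a regulator of cartilage cells, was highest in SS replicate 4 (19.3 CPM, against 9.38 CPM in SS replicate 2), and Cnmd was highest in SA replicate 3 (141 counts, against 7). Col2a1, the main cartilage collagen gene, reached 412 CPM in SS replicate 2, against 354 CPM in SA replicate 3. The summed level of the 8 chondrocyte markers was 682 CPM in SS replicate 2, 59.7 to 142 CPM in the other SS libraries and 83.7 to 440 CPM in SA, with 3 of the 8 past the filter and none at 0 in all libraries. The 440 CPM were in SA replicate 3, which had the lowest Ptn level of all libraries (1.41 CPM). In SS replicates 3 and 4 the sums were 130 and 142 CPM, with Ptn at 14.9 and 25.7 CPM. SS replicate 2 also had the highest summed level of fibroblast markers (2740 CPM) and of Schwann and glial cell markers (117 CPM). The part of these cell types in the Ptn level was not tested. SS replicate 2 also stood apart from all other libraries in Xist and Ddx3y and in the date-like number of its title. The part of these in the Ptn level was not tested either. In bulk samples more cells of a type and more RNA per cell cannot be told apart.

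Mdk encodes midkine. It is a protein-coding gene on chromosome 2, from 91929805 to 91932297 on the minus strand (ENSMUSG00000027239.14). It was at 8.16, 14.9, 24.3 and 36.4 CPM in SA replicates 1 to 4 and at 16.4, 86.1, 42.8 and 146 CPM in SS replicates 1 to 4. As for Ptn, SS replicates 2, 3 and 4 were above every SA library and SS replicate 1 lay inside the SA range. Means were 20.9 ± 12.2 CPM for SA and 72.9 ± 56.8 for SS (SD, n = 4 per genotype), a log2 fold change of 1.80 (SE 0.64), which was 1.21 (SE 0.61) without SS replicate 4.

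Within each genotype the leukocyte-rich libraries had the lowest midkine levels. The 3 lowest libraries of all 8 were SA replicates 1 and 2 and SS replicate 1, at 8.16 to 16.4 CPM. Among the 5 other libraries the 2 SA values (24.3 and 36.4 CPM) were both below the 3 SS values (42.8 to 146 CPM), and the log2 fold change over these 5 was 1.60 (SE 0.52). With a score of the leukocyte markers as a covariate it was 0.32 (SE 0.35). For Ptn these 2 values were 4.28 (SE 1.005) and 1.34 (SE 1.62). The 2 ways of allowing for leukocyte transcripts therefore gave different sizes for both ligands. SS replicate 4, highest in midkine, was also highest in pericyte and smooth muscle markers, whose summed level was 6599 CPM there and 673 to 860 CPM in SA. In SS replicates 1 to 3 it was 1518, 1312 and 1839 CPM. SS replicate 1 was thus above SS replicate 2 and all SA libraries in these markers, with Mdk inside the SA range. All 10 of those markers passed the filter, and their part in the midkine level was not tested.

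**Figure D1:**
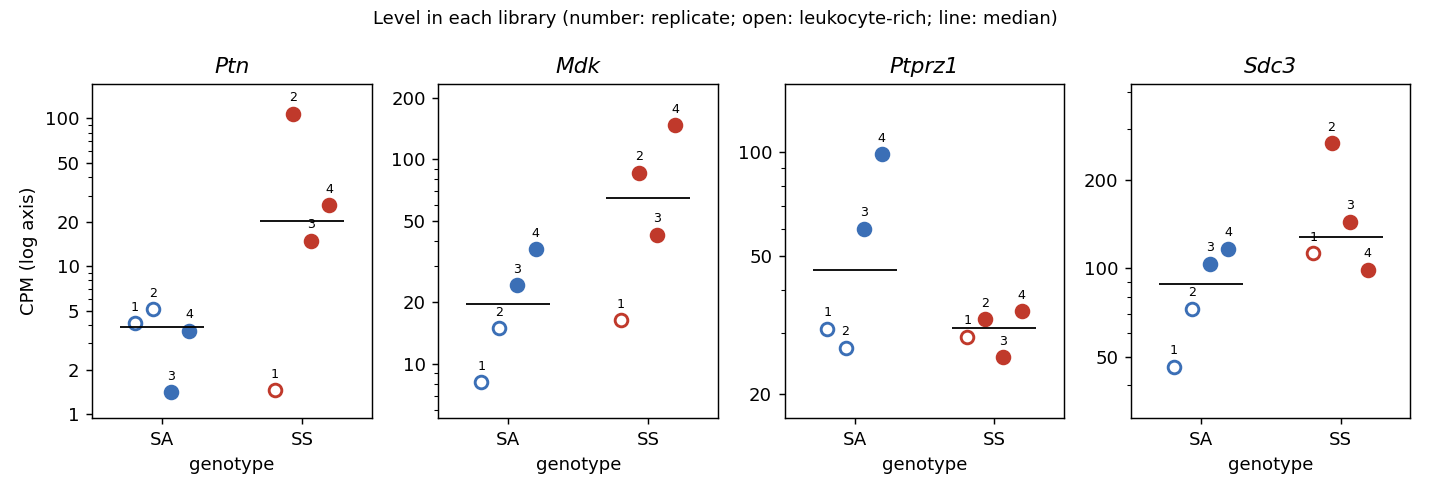
CPM of Ptn, Mdk, Ptprz1 and Sdc3 (log axes, 1 panel per gene) in each of the 4 SA and 4 SS libraries, with the replicate number above each point, leukocyte-rich libraries as open circles and the median as a line. Ptn and Mdk were above all SA values in SS replicates 2, 3 and 4 and not in SS replicate 1, and Ptprz1 was highest in SA replicates 3 and 4.

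Levels of different genes can be set side by side only per length. Per kilobase of exons, Mdk was the higher ligand in all 8 libraries, at 15.8 ± 9.24 CPM per kilobase in SA and 55.1 ± 42.9 in SS, against 1.04 ± 0.46 and 10.9 ± 13.9 for Ptn. The ratio of Ptn to Mdk, each per kilobase, ran from 0.0223 to 0.194 in SA and from 0.0340 to 0.480 in SS, with the top value in SS replicate 2. Their sum was 7.36 to 28.6 CPM per kilobase in SA and 12.8 to 118 in SS, where SS replicate 1 was again inside the SA range.

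**Figure D2:**
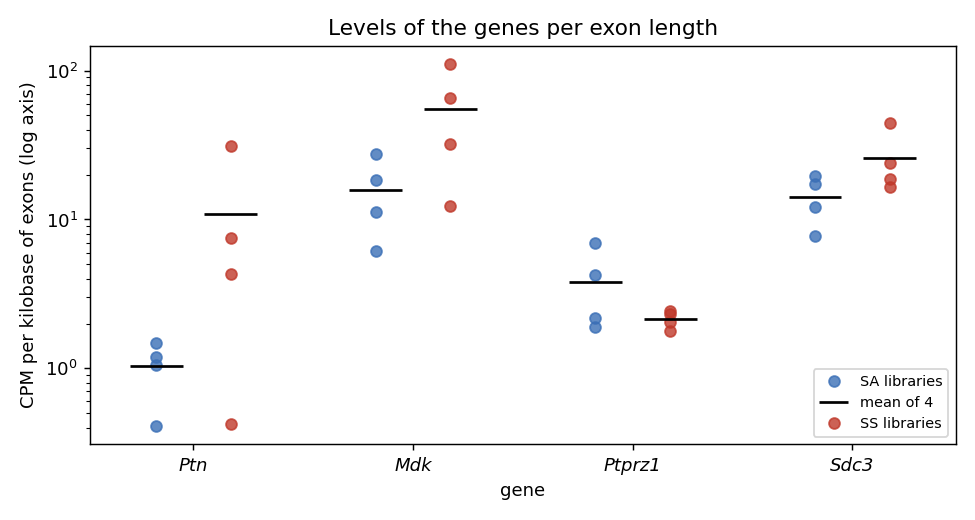
CPM per kilobase of exons (log axis) for Ptn, Mdk, Ptprz1 and Sdc3, with 1 point per library and the mean of 4 as a bar. Mdk and Sdc3 had the highest means, and Ptn in SS ran from 0.42 to 31.2 CPM per kilobase.

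Among the receptors, Ptprz1 had the lower mean in SS. It encodes a receptor tyrosine phosphatase that carries chondroitin sulfate, and it is a protein-coding gene on chromosome 6, from 22875502 to 23052916 on the plus strand (ENSMUSG00000068748.7). It was at 30.9, 27.2, 60.1 and 98.7 CPM in SA replicates 1 to 4 and at 29.2, 32.9, 25.5 and 34.6 CPM in SS replicates 1 to 4. SA replicates 3 and 4 stood above the 6 other libraries, while SA replicates 1 and 2 lay inside the SS range. Means were 54.2 ± 33.1 CPM for SA and 30.5 ± 4.06 for SS (SD, n = 4 per genotype), a log2 fold change of -0.83 (SE 0.40), which was -0.36 (SE 0.34) without SA replicate 4. Over the 5 libraries that were not leukocyte-rich it was -1.36 (SE 0.33). The SS libraries differed from each other by at most 0.44 on the log2 scale, less than for the median gene, and the SA libraries by 1.86.

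PTPRZ1 is best known from glia and is also made by bone-forming cells. Of 8 Schwann and glial cell markers, 3 passed the filter. The summed level of the 8 was 48.6 to 72.8 CPM in SA and 62.1 to 117 CPM in SS. Of these markers S100b was at 7.61 to 66.1 CPM in SA and 35.5 to 116 CPM in SS. Mbp was highest in the leukocyte-rich libraries, at 39.9 and 39.5 CPM in SA replicates 1 and 2 and 22.0 CPM in SS replicate 1. The glial regulator Sox10 had at most 8 counts in a library. All 10 osteoblast markers passed, and their summed level was 23480 and 24437 CPM in SA replicates 3 and 4 and 6363 and 8106 CPM in SA replicates 1 and 2, so that in SA it was high in the libraries where Ptprz1 was high. In SS it ran from 4740 to 18096 CPM, with the top value in SS replicate 2, where Ptprz1 was at 32.9 CPM. Reticular stromal markers split SA the same way, with sums of 31296 and 31506 CPM in SA replicates 3 and 4. In the leukocyte-rich SA replicates 1 and 2 they summed to 19929 and 13973 CPM. Chondrocyte markers did so too, at 440 and 334 CPM against 83.7 and 157 CPM. The part of any of these cell types in the Ptprz1 level was not tested.

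Sdc3 encodes syndecan-3, a transmembrane heparan sulfate proteoglycan. It is a protein-coding gene on chromosome 4, from 130792537 to 130826319 on the plus strand (ENSMUSG00000025743.14). It was at 46.2, 72.7, 104 and 117 CPM in SA replicates 1 to 4 and at 113, 268, 144 and 99.2 CPM in SS replicates 1 to 4. SS replicates 2 and 3 were above all SA libraries and the other 2 SS libraries were inside the SA range. Means were 84.9 ± 31.8 CPM for SA and 156 ± 76.8 for SS (SD, n = 4 per genotype), a log2 fold change of 0.88 (SE 0.37), which was 0.48 (SE 0.32) without SS replicate 2 and 0.62 (SE 0.39) over the 5 libraries that were not leukocyte-rich. With the leukocyte score as a covariate the log2 fold change was 0.49 (SE 0.36). Per kilobase of exons Sdc3 averaged 14.2 ± 5.31 CPM in SA against 26.0 ± 12.8 in SS, and on that scale it was the most abundant of the 3 receptors in each library. 2 antisense genes overlap its exons, Gm12970 and Gm26716, and both had 0 counts in every library.

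Alk encodes a receptor tyrosine kinase. It is a protein-coding gene on chromosome 17, from 71868972 to 72604627 on the minus strand (ENSMUSG00000055471.7). It had 0 counts in all 8 libraries. A count of 0 allows a level of up to 0.0967 to 0.113 CPM, depending on the library, at 3 counts and for counting error only. The ligands named for ALK itself, Alkal1 and Alkal2, had at most 1 and 10 counts, and its nearest relative Ltk at most 3.

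**Figure D3:**
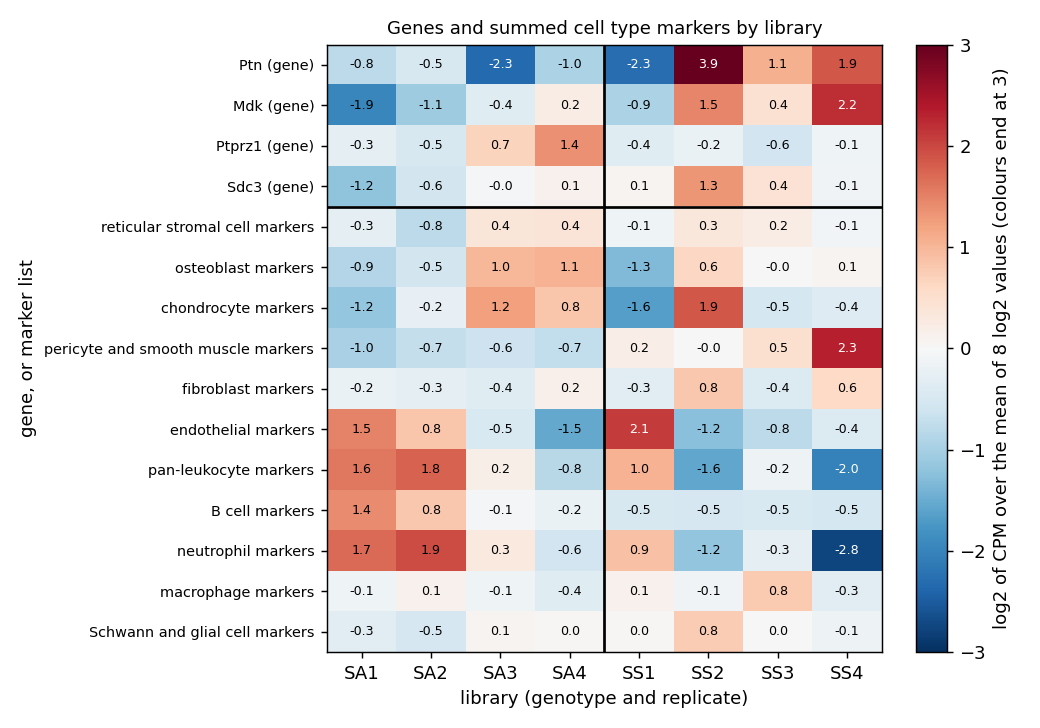
Colour and number give the log2 of CPM (4 genes, upper rows) or of summed marker CPM (11 cell type lists, lower rows) in each library, less the mean of the 8 log2 values of that row. SS replicate 2 was highest in Ptn and in chondrocyte, fibroblast, and Schwann and glial cell markers. SS replicate 4 was highest in Mdk and in pericyte and smooth muscle markers, and the leukocyte-rich libraries were low in Mdk.

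Across the whole table, edgeR called 0 of 17316 genes between SS and SA at an adjusted p under 0.05 (0%), and so none of the 4 genes. At an unadjusted p under 0.05 there were 1209 genes, 6.98% of those tested, with 4.03% higher and 2.96% lower in SS. limma-voom called 0 genes and DESeq2 called 315 of the 19472 to which it gave an adjusted p (1.62%), Ptn among them, a call that was known when the genes were chosen. None of the 4 genes was free of overlap between genotypes, where 3.91% of genes tested were (2.36% wholly higher in SS and 1.55% wholly lower). Log2 fold changes of at least 1, as for Ptn and Mdk, were found for 9.55% of genes tested.

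**Figure D4:**
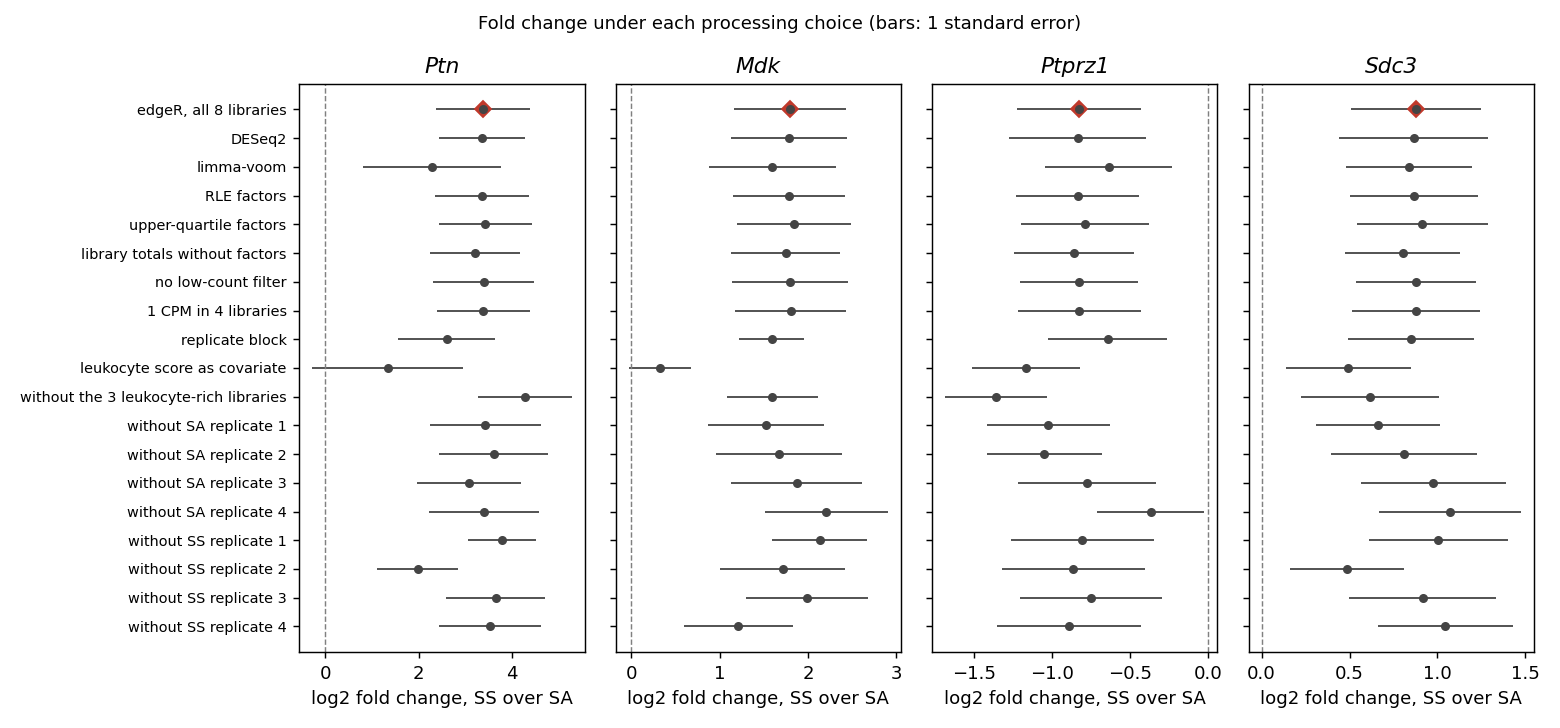
Log2 fold change of SS over SA for Ptn, Mdk, Ptprz1 and Sdc3 with all 8 libraries in edgeR (red diamond) and under 18 other processing choices (points), with bars of 1 standard error and a dashed line at 0. Ptn ran from 1.34 to 4.28, Mdk from 0.32 to 2.21, Ptprz1 from -1.36 to -0.36 and Sdc3 from 0.48 to 1.07.

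Over the 8 libraries Ptn and Mdk had a Pearson correlation of 0.73 in log2 CPM, and Mdk and Sdc3 of 0.68, while Ptprz1 had -0.32 with Ptn, 0.10 with Mdk and 0.07 with Sdc3. These are descriptions over libraries that share genotype and cell makeup. Likeness was measured by Pearson correlation over the 8 libraries, among 10829 genes whose mean reached 5 CPM. Most like Ptn were Trappc6a (0.95), Xxylt1 (0.95), the interferon-induced gene Ifi27 (0.93), Srr (0.92) and Paip2 (0.92). Most like Mdk were Arhgef40 (0.97), Ermp1 (0.96), the smooth muscle myosin gene Myh11 (0.96), Rps10-ps1 (0.96) and the gelatinase gene Mmp2 (0.96), whose mean was 132 CPM in SA and 361 in SS. For Ptprz1 they were Ubqln4 (0.96), the ubiquitin ligase gene Cblb (0.93), C87436 (0.93), Dpep1 (0.92) and the adenylyl cyclase gene Adcy5 (0.92). For Sdc3 they were Nkrf (0.98), the kininogen gene Kng1 (0.96), AC134860.1 (0.96), the prostaglandin F receptor gene Ptgfr (0.96) and Nav2 (0.96).

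Genes beside the 5 had smaller log2 fold changes than Ptn and Mdk. The nearest tested protein-coding genes to Ptn were Mtpn and Creb3l2, 1175 and 517 kb away, with log2 fold changes of -0.19 (SE 0.23) and 0.23 (SE 0.34). Dgkz, 0.5 kb from Mdk, and Ambra1, 11 kb from it, had -0.18 (SE 0.63) and -0.55 (SE 0.38). For Ptprz1 the neighbours were Fam3c (-0.33, SE 0.30) and Cadps2 (0.40, SE 0.88), and on one side of Sdc3 lay the leukocyte gene Laptm5 (-1.22, SE 0.71). Beside Alk lay Wdr43 (0.35, SE 0.23) and Ypel5 (-0.46, SE 0.43).

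Further genes of the pathway were taken from 5 lists that leave out the 5 genes. Of their 83 genes 73 passed the filter and edgeR called 0 higher and 0 lower in SS. Of the 73, 50 had a positive and 23 a negative log2 fold change, with a median of 0.26, where 48.98% of all genes tested were positive and the median was -0.01. In 4 the SS libraries lay wholly above the SA libraries (Lrp1, Dse, Ext2 and Gpc6) and in 2 wholly below (Il34 and Chst15), where 2.36% and 1.55% of all genes tested did so. With the leukocyte score as a covariate the medians of the 5 lists were between 0.01 and 0.11, against 0.14 to 0.45 without it.

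Other ligands of these receptors were 9 genes, of which 6 passed the filter, with 4 positive and a median log2 fold change of 0.45, which was 0.17 without SA replicate 2 or SS replicate 2, 0.27 without SS replicate 3 and 0.69 without SA replicate 4. Il34, a cytokine that binds PTPRZ1 and syndecan-1 besides its main receptor, was at 46.8, 41.8, 78.6 and 105 CPM in SA and at 29.8, 23.9, 25.6 and 29.6 CPM in SS replicates 1 to 4. All SS values were below all SA values, and SA replicates 3 and 4 were highest, as for Ptprz1. Over 8 libraries the Pearson correlation of Il34 with Ptprz1 was 0.87 and the Spearman correlation 0.52. The log2 fold change of Il34 was -1.32 (SE 0.32, edgeR adjusted p = 0.520). Cntn1, Nfasc and L1cam encode cell adhesion molecules of nerve cells. L1cam averaged 31.6 ± 20.8 CPM in SA against 3.87 ± 5.49 in SS (-3.03, SE 1.03), and -4.77 without SS replicate 1. Within each genotype it was highest in the leukocyte-rich libraries, SA replicates 1 and 2 (55.5 and 38.6 CPM) and SS replicate 1 (12.05 CPM). With the leukocyte score as a covariate its log2 fold change was -2.41 (SE 0.81). Nfasc and Cntn1 were low, at 0.45 ± 0.15 and 3.19 ± 1.26 CPM in SA and 5.69 ± 8.45 and 8.40 ± 8.76 CPM in SS. Nfasc reached 18.2 CPM in SS replicate 3 and Cntn1 21.3 CPM in SS replicate 2, without which their log2 fold changes fell from 3.64 to 1.75 and from 1.40 to 0.36. None of the 3 passed (edgeR adjusted p = 0.695 for L1cam and Nfasc and 0.752 for Cntn1).

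Other receptors and binding partners of the ligands were 18 genes, 15 of them past the filter, with 9 positive and a median log2 fold change of 0.30, which was 0.48 without SA replicate 4. Lrp1, a large endocytic receptor that binds midkine, was at 413, 435, 530 and 681 CPM in SA and at 747, 1230, 1301 and 1381 CPM in SS replicates 1 to 4. All SS values were above all SA values, with SS replicate 1 the lowest of them (log2 fold change 1.18, SE 0.25, edgeR adjusted p = 0.411). Lrp6, a Wnt co-receptor, was at 141 ± 48.1 and 228 ± 61.9 CPM, and Itgav, an integrin subunit that is also the sorted antigen CD51, at 330 ± 85.4 and 584 ± 182 CPM. Sdc2, another syndecan, averaged 182 ± 49.7 CPM in SA against 344 ± 171 in SS. Log2 fold changes were 0.92 for Sdc2, 0.69 for Lrp6 and 0.82 for Itgav (edgeR adjusted p = 0.695 for each). With the leukocyte score as a covariate they were 0.30 (SE 0.35), 0.30 (SE 0.21) and 0.46 (SE 0.23). That of Lrp1 was then 0.82 (SE 0.19). The remaining syndecans Sdc1 and Sdc4 had -0.37 (SE 0.30) and 0.30 (SE 0.27).

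All 15 intracellular targets of the receptors passed the filter, with 9 positive and a median of 0.14, which was -0.04 without SA replicate 1. Arhgap35, a GTPase-activating protein that PTPRZ1 dephosphorylates, averaged 116 ± 52.2 CPM in SA against 199 ± 32.8 in SS (0.78, SE 0.31). Magi1, a scaffold and PTPRZ1 substrate, had 0.93 (SE 0.52), and 0.43 (SE 0.53) without SS replicate 4. The kinase gene Src had 0.73 (SE 0.42) and Git1, another substrate, -0.48 (SE 0.29). edgeR adjusted p-values of these 4 ran from 0.695 to 0.766. The catenin gene Ctnnb1, whose protein PTPRZ1 dephosphorylates, had 0.32 (SE 0.34).

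The ligands bind to sulfated sugar chains, whose assembly was covered by 29 genes. Of these 27 passed the filter, 19 with a positive log2 fold change, and the median was 0.25, which was 0.08 without SA replicate 2 and 0.16 without SS replicate 3. Ext2, a polymerase of heparan sulfate, was at 57.6, 31.7, 77.4 and 67.5 CPM in SA and at 92.1, 104, 103 and 309 CPM in SS replicates 1 to 4. The genotypes did not overlap, and SS replicate 4 was the highest library, as in Mdk (log2 fold change 1.38, SE 0.43, and 0.77 without SS replicate 4). Dse, an epimerase that makes dermatan sulfate, was at 62.4 ± 20.7 and 131 ± 27.0 CPM without overlap (1.07, SE 0.28). Chpf, a chondroitin polymerizing factor, and Glce, an epimerase of heparan sulfate, had 1.08 (SE 0.40) and 1.02 (SE 0.39). Chst15, which adds a sulfate to chondroitin, was lower in each SS library, at 142 ± 23.0 and 110 ± 7.27 CPM (-0.36, SE 0.18). edgeR adjusted p-values of these 5 ran from 0.595 to 0.734.

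Other core proteins that carry such chains were 12 genes, of which 10 passed the filter and 9 had a positive log2 fold change, with a median of 0.45. Gpc6, a glypican, averaged 258 ± 65.4 CPM in SA against 396 ± 29.1 in SS without overlap (0.62, SE 0.22). Hspg2, which encodes the basement membrane proteoglycan perlecan, was at 178 ± 45.7 and 328 ± 78.6 CPM (0.88, SE 0.26), and Vcan, which encodes versican, at 181 ± 25.4 and 312 ± 98.7 CPM (0.79, SE 0.25). Agrn, which encodes agrin, had 0.47 (SE 0.32). edgeR adjusted p-values ran from 0.628 for Hspg2 to 0.778 for Agrn.

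**Figure D5:**
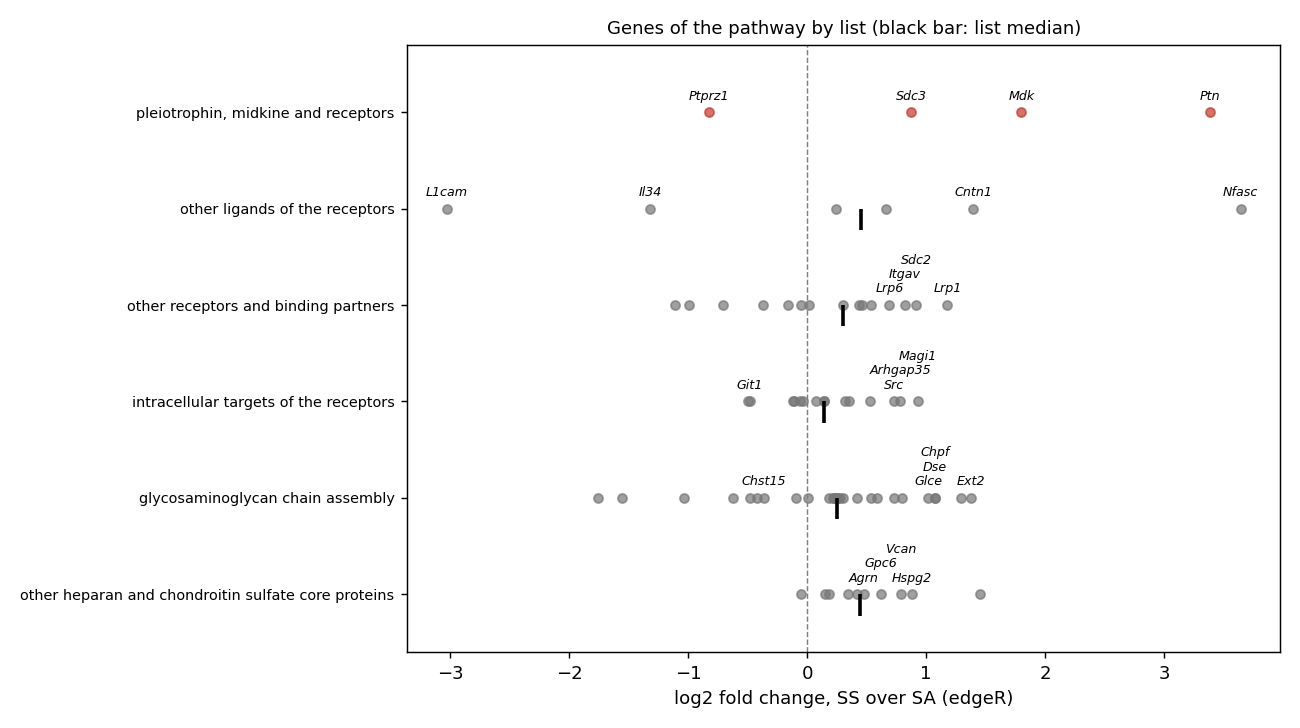
Log2 fold change of SS over SA (edgeR) for the 4 genes past the filter (red, top row) and for the 73 tested genes of the 5 pathway lists (grey), with each list's median as a black bar and the named genes labelled. List medians lay between 0.14 and 0.45, and Ptn, Mdk, Nfasc and L1cam were among the genes farthest from 0.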

How the data were processed

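Per the labels, RNA was taken from the sorted cells with NucleoSpin RNA-XS and libraries were built by the Trio low-input method. The deposited table that was used holds counts, unscaled, with 1 row per symbol and 1 column per library for both lanes together. Base calling with bcl2fastq, alignment with STAR and counting with featureCounts are named per the submitters' processing notes, beside DESeq2 and builds GRCm38 and mm10. No source used here gives versions, annotation or strand, so how reads in overlapping genes were counted is not known. A second deposited table, scaled per library, was not used.

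Counts were fitted over the whole table with edgeR 4.0.16 in R 4.3.3 (filterByExpr, TMM factors, robust quasi-likelihood F test, SS over SA, Benjamini-Hochberg adjustment over 17316 genes, threshold 0.05). SE is the fold change over the root of F. The scripts were tested on simulated data. DESeq2 1.42.0 and limma-voom (limma 3.58.1) were alternatives, with 3 other scalings, 2 other filters, a replicate block, a leukocyte covariate (mean log2 CPM of 15 markers, prior count 2), the 3 leukocyte-rich libraries left out and each library left out in turn. Positions and exon lengths are from GENCODE M21 on GRCm38 and promoter windows from RefSeq on GRCm38.p6.

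The 5 genes and the lists were chosen with earlier results of these data known. Beside the 5 genes, the text names up to 4 genes per pathway list with the smallest p, those without overlap between genotypes, the 5 genes most like each by Pearson correlation (mean of at least 5 CPM, gene models named Gm with digits or Rik left out) and the nearest tested neighbours. A few more were chosen after their values were seen: Sdc1, Sdc4, Ctnnb1, Hapln1, Acan, Col9a1, Sox9, Cnmd, Col2a1, Sox10, S100b, Mbp and the genes at or near 0. Pdgfra, Xist and Ddx3y were named as checks of the sort and of sex. Some genes, 1 neighbour among them, are not reported here.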

Additional observations from a re-analysis of the deposited data

Results flagged for a closer look

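Levels of the named genes were examined for a library far from the 3 others of its genotype, by Dixon's gap test at the 95% level. Of 50 groups of 4 libraries 4 held such a library, and chance alone gives about 1 in 20 groups. Ext2, a heparan sulfate polymerase, reached 309 CPM in SS replicate 4 while the rest of SS lay between 92.1 and 104 CPM. L1cam reached 12.05 CPM in SS replicate 1, against 0.253 to 1.68 CPM in the rest. The kinase gene Src reached 24.3 CPM in SS replicate 3, against 12.5 to 13.5 CPM in the rest. Chst15 reached 121 CPM in SS replicate 3, against 106 to 108 CPM in the rest. None did for Ptn, Mdk, Ptprz1 or Sdc3.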

How the results depend on the processing

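edgeR called 0 genes in the whole table, DESeq2 315 and edgeR without a low-count filter 5. Leaving out each library in turn gave 0 to 1, the 1 being without SS replicate 1, and the remaining alternatives gave 0. The log2 fold changes of Ptn, Mdk, Ptprz1 and Sdc3 kept their sign under all 18 alternatives, as did those of the other named pathway genes except Agrn, which was -0.11 with the leukocyte score as a covariate. DESeq2 called Ptn (adjusted p = 0.0263), Il34 (0.0176) and Lrp1 (0.00795). In the other alternatives none of these 25 genes passed, and Nfasc had no value under the filter of 1 CPM in 4 libraries. The cause of these differences was not tested. Same-numbered libraries of the 2 genotypes did not deviate together (correlations of -0.15 to 0.22 over genes), so the numbers were not taken as pairs. With the replicate number as a block edgeR called 0 genes, and the log2 fold change was 2.60 for Ptn and 1.59 for Mdk. Per kilobase of the longest transcript, Ptprz1 averaged 6.72 CPM in SA against 3.79 in SS, in place of 3.81 and 2.14 per kilobase of all exons. By Spearman correlation the 5 genes most like a gene shared 0 with those by Pearson for Ptn, 2 for Mdk and 1 each for Ptprz1 and Sdc3. With 4 libraries per genotype the spread between libraries, more than counting error, limits these values.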
